A study of Mus musculus with 6 samples.

Results

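The integrated stress response genes around the transcription factor ATF4 were followed in livers of obese mice. The 10 genes were taken by name from the 39179 gene identifiers of the count files. They were Atf4, Atf5, Ddit3, Trib3, Asns, Psat1, Phgdh, Chac1, Sesn2 and Fgf21, and each matched 1 identifier. All animals were C57BL/6J mice given a high-fat diet, with 60% of energy as fat, from 5 weeks of age and for 21 weeks. Haematoxylin and eosin staining of liver biopsies split these mice into isolated steatosis (fat storage alone) and nonalcoholic steatohepatitis (NASH), and 3 livers of each class were sequenced. The classes are thus histological grades of animals on the same diet, with no drug or mutation, and no lean liver was analysed here. The labels read here do not give the sex of the mice. The labels do not say outright that each library came from its own mouse, so p-values measure the spread between these samples.

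The integrated stress response is a shared answer to amino acid shortage, unfolded protein in the endoplasmic reticulum (ER), mitochondrial faults and viral RNA. Kinases for each stress phosphorylate the initiation factor eIF2alpha, which lowers protein synthesis in general but favours translation of Atf4 and Atf5 mRNA. ATF4 protein then raises transcription of genes for amino acid synthesis and transport, of the transcription factor CHOP (Ddit3) and of feedback regulators. Because ATF4 is controlled largely at translation, its mRNA level is not a measure of the protein. In liver the hormone FGF21 is a known output of this pathway and also of the fasting receptor PPARalpha.

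Total counts were between 13909238 and 18002095 per library. Mitochondrially encoded genes took 62.0% to 83.9% of them. Loci with rRNA-like sequence took 22.3% of NASH 3 and 8.96% of steatosis 2, but at most 1.06% of the other libraries. All remaining genes held 24.2% ± 3.86 of counts in steatosis and 16.1% ± 0.921 of those in NASH (means ± SD of 3 libraries; two-sided exact permutation p = 0.1, the smallest possible). Levels are given in CPM, counts divided by the library size after TMM scaling. A count of 3 was worth between 0.111 and 0.272 CPM, depending on the library. The tissue was checked against the hepatocyte markers Alb, Apoa1, Ttr and Cps1, whose summed level was 9682 to 10962 CPM in steatosis and 8153 to 10525 CPM in NASH. Alb was the largest part of that sum in every library. Alb and Ttr lay lower in every NASH liver than in any with steatosis (log2 fold changes -0.40 and -0.54), and Apoa1 lay higher (0.50). The groups overlapped for Cps1 (0.39), and none of these markers was called.

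Asns, the asparagine synthetase, had 63 counts in the NASH livers together and 3 in those with steatosis, and was the one gene of the 10 called by edgeR with all 6 libraries. It passed the filter on low counts only through the NASH group, where it is high, so a tested Asns had to differ and its call and p are given as a description. Atf5 and Ddit3 had log2 fold changes of 0.89 and 1.29 and did not pass. Atf4 mRNA itself had one of -0.12. A gene was called at a Benjamini-Hochberg adjusted p under 0.05 in edgeR's quasi-likelihood test of NASH against steatosis. Of the 10 members 8 had enough counts to be tested, 1 was called higher and 0 were called lower. Over all 11375 tested genes 1.49% were called higher and 3.33% lower. At an unadjusted p under 0.05 there were 3 members higher (Asns, Atf5 and Ddit3) and 0 lower, against 10.2% and 12.9% of all tested genes. Groups did not overlap for 2 members, Asns and Atf5, both higher in NASH, while over all tested genes 13.1% lay wholly higher in NASH and 16.2% wholly lower. The median log2 fold change of the 8 tested members was 0.75, beside 0.01 over all tested genes. The count of 1 and the median both include Asns and carry the same limit. With no filter on low counts, which lets Psat1 and Phgdh in, the median over all 10 was 0.86.

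**Figure D1:**
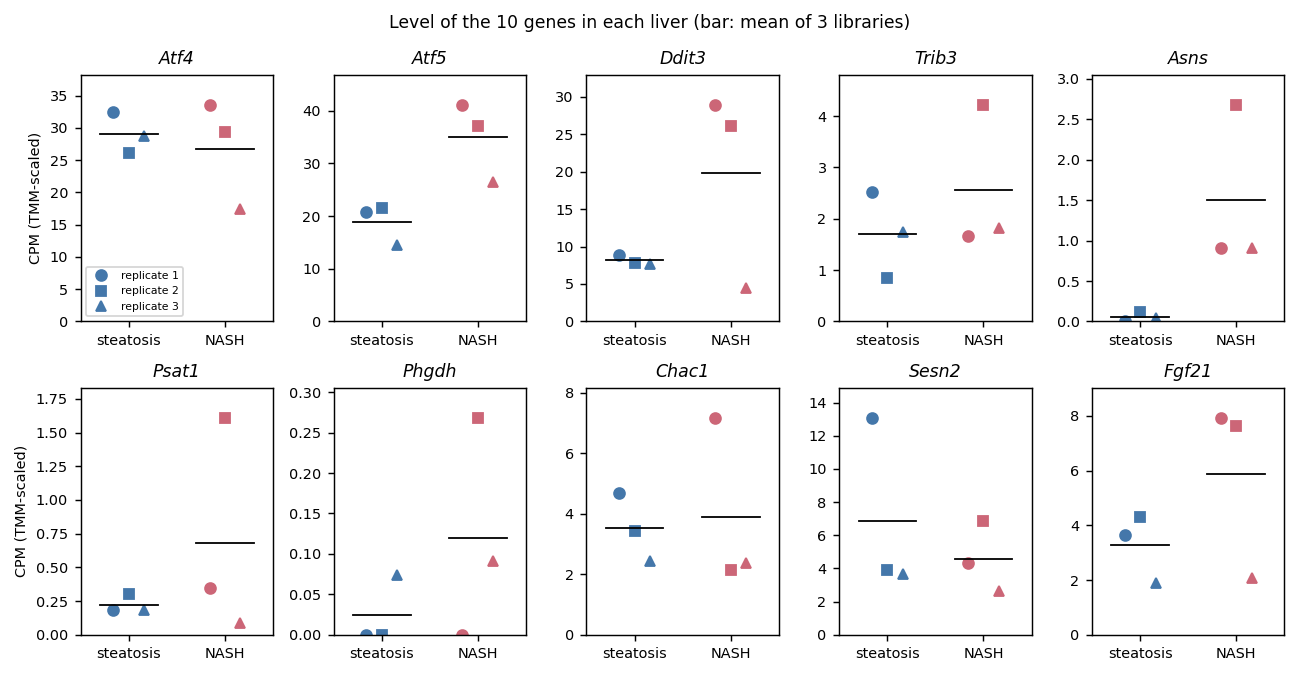
Level of each of the 10 genes in each liver, in CPM on TMM-scaled library sizes, with a separate vertical axis per gene; markers are libraries (circle, square and triangle for replicates 1, 2 and 3) and bars are group means of 3. The NASH libraries lie above all steatosis libraries for Asns and Atf5, and NASH 3 lies with or below steatosis for Ddit3 and Fgf21.

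Of the 3 transcription factors none was called. Atf4 (chr15:80255184-80257541, plus strand, GRCm38), which encodes the central factor of the response, stood at 32.5, 26.1 and 28.8 CPM in steatosis 1, 2 and 3 and at 33.6, 29.4 and 17.4 CPM in NASH 1, 2 and 3. The groups overlapped, with NASH 3 lowest of the 6. Its log2 fold change was -0.12 (SE 0.25, adjusted p = 0.826 in edgeR), and this turned to 0.12 without NASH 3 and to 0.0069 with library sizes taken from the remaining genes without TMM.

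Atf5 (chr7:44812256-44816658, minus strand), a relative of ATF4 whose mRNA is under the same translational control, stood at 20.7, 21.6 and 14.5 CPM in steatosis. In NASH it stood at 41.1, 37.2 and 26.5 CPM, and all 3 values lay above the steatosis range. The log2 fold change was 0.89 (SE 0.24, adjusted p = 0.0595 in edgeR), just short of the threshold. DESeq2, which called 2.94% of the genes to which it gave an adjusted p higher in NASH, called Atf5 too (log2 fold change 0.89, adjusted p = 0.0134 in DESeq2). Atf5 shares 82 exon bases, 4.11% of its exon length, with Il4i1 on the opposite strand, and Il4i1 had 9 to 26 counts per library against 292 to 592 for Atf5. Nup62 on the opposite strand also shares 82 exon bases with Atf5 and was not among the counted genes.

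Ddit3 (chr10:127290774-127296288, plus strand) encodes CHOP, a partner of ATF4 that is linked to cell death under lasting stress. Steatosis livers held 8.93, 7.79 and 7.72 CPM, a narrow range. NASH 1 and NASH 2 held 28.9 and 26.1 CPM, against a steatosis mean of 8.15 CPM, whereas NASH 3 held 4.45 CPM, below every steatosis liver. The log2 fold change was 1.29 with an SE of 0.50 and did not pass (adjusted p = 0.153 in edgeR). Without NASH 3 it was 1.76 and passed (adjusted p = 0.0073 in edgeR), in a fit that called 0.75% of all genes higher. NASH 3 is the library with the most rRNA-like reads, and the part of those reads in the Ddit3 value was not tested. Ddit3 overlaps Mars on the opposite strand over 68 exon bases, and Mars had a log2 fold change of 0.04 (adjusted p = 0.938 in edgeR). On the same strand Ddit3 shares 105 exon bases, 6.13% of its exon length, with a second annotated entry of the same name.

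The 3 enzymes of amino acid synthesis were close to the detection limit in liver. Asns (chr6:7675169-7693254, minus strand), which makes asparagine from aspartate and glutamine, had 0, 2 and 1 counts in the steatosis libraries, against 13, 40 and 10 in those of NASH. As levels these were 0, 0.120 and 0.0371 CPM against 0.903, 2.68 and 0.908 CPM. The groups did not overlap, and NASH 2 stood above the other NASH livers: the 95% counting interval of NASH 2 was 1.91 to 3.65 CPM, that of NASH 1 0.481 to 1.54 CPM and that of NASH 3 0.435 to 1.67 CPM. The fitted log2 fold change was 4.73 (SE 0.79, adjusted p = 0.0128 in edgeR), in a test that Asns entered through its NASH counts alone. A filter of at least 1 CPM in 3 libraries removed it. Since steatosis held 3 counts in all and NASH 63, the size is better read from the ratio of summed counts, 31.2 after scaling, with an exact 95% interval of 10.2 to 155 for counting error alone. The call was lost without steatosis 1, the liver with 0 counts (log2 fold change 4.31, adjusted p = 0.0542 in edgeR), and without steatosis 2 and NASH 3 together (5.92, adjusted p = 0.0539 in edgeR). DESeq2 gave Asns no adjusted p. Pancreatic acinar cells are rich in Asns, and of their defining markers Pnlip was at 0 in every library. Cpa1 had 0, 0 and 0 counts in steatosis 1, 2 and 3, against 2, 0 and 1 in NASH 1, 2 and 3. In the same order Ctrb1 had 0, 0 and 0 against 0, 1 and 0, and Cela2a 0, 1 and 0 against 0, 0 and 3. With Cela1, which held most of the counts of this list, the summed level of these markers was 0.862 to 1.48 CPM in steatosis and 0.871 to 2.57 CPM in NASH, lowest within NASH in NASH 2. The part of acinar cells in the Asns counts was not tested.

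Psat1 and Phgdh encode enzymes of serine synthesis from glycolysis. Psat1 had 3, 5 and 5 counts in the steatosis libraries, against 5, 24 and 1 in those of NASH, and failed the filter on low counts. The NASH 2 level of 1.61 CPM (95% counting interval 1.03 to 2.39) stood apart from the other 5 livers, which lay between 0.0908 and 0.347 CPM. Phgdh, the first enzyme of the route, had 0, 0 and 2 counts in the steatosis libraries, against 0, 4 and 1 in those of NASH. Both Phgdh groups lay at this depth within counting error of each other (ratio of summed counts 3.71, exact 95% interval 0.607 to 39.0), so a difference was not detectable.

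Among the regulators and effectors, no gene was called. Trib3, a pseudokinase that is induced by ATF4 and CHOP and feeds back on ATF4, stood at 2.53, 0.839 and 1.74 CPM in steatosis and 1.67, 4.22 and 1.82 CPM in NASH. Only NASH 2 left the steatosis range, and the log2 fold change of 0.61 (SE 0.45, adjusted p = 0.46 in edgeR) fell to 0.05 without it. Chac1, which breaks down glutathione, stood at 4.68, 3.42 and 2.45 CPM in steatosis and 7.16, 2.14 and 2.36 CPM in NASH. NASH 1 was highest of the 6 livers and the other NASH livers were the lowest, so that the log2 fold change of 0.17 (SE 0.44, adjusted p = 0.858 in edgeR) became -0.63 without NASH 1 and -0.03 without steatosis 3.

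Sesn2, sestrin 2, restrains the growth kinase complex mTORC1 when leucine is short. It stood at 13.1, 3.90 and 3.67 CPM in steatosis and 4.31, 6.83 and 2.63 CPM in NASH. Steatosis 1 stood apart at the top, NASH 2 came next, and the groups overlapped. The log2 fold change was -0.55 (SE 0.49, adjusted p = 0.547 in edgeR) and turned to 0.31 without steatosis 1.

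Fgf21 encodes a liver hormone of nutrient stress. Levels were 3.63, 4.32 and 1.89 CPM in steatosis and 7.92, 7.63 and 2.09 CPM in NASH. As for Ddit3, NASH 1 and NASH 2 lay above all steatosis livers and NASH 3 did not. The log2 fold change was 0.88 (SE 0.45, adjusted p = 0.266 in edgeR), and 1.28 without NASH 3 (adjusted p = 0.0737 in edgeR).

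**Figure D2:**
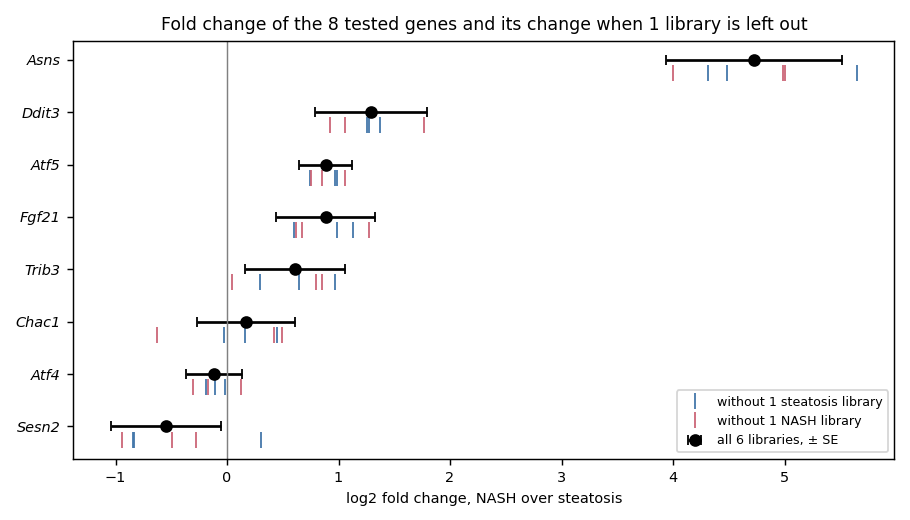
Log2 fold change of NASH over steatosis for the 8 tested genes (points, ± SE from edgeR, 3 libraries per group), with ticks below each point for the 6 fits that leave out 1 library. Asns stays between 4.0 and 5.65, Atf5 between 0.74 and 1.06 and Ddit3 between 0.92 and 1.76, while Atf4, Chac1 and Sesn2 cross 0.

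Per kilobase of exon, the order of levels in steatosis ran from Atf4 (12.3 ± 1.36 CPM per kilobase, SD, n = 3) over Atf5 (9.5 ± 1.92) to Ddit3 (4.76 ± 0.398), and these 3 neighbours did not overlap in range. Fgf21, Chac1, Sesn2 and Trib3 followed at 3.45, 2.15, 1.98 and 0.801 CPM per kilobase, each overlapping its neighbour in range. Psat1, Asns and Phgdh came last at 0.0525, 0.0191 and 0.00995 CPM per kilobase, with a gap below Trib3. In NASH the first places were held by Atf5 (17.5 ± 3.79 CPM per kilobase, SD, n = 3), Ddit3 (11.6 ± 7.81) and Atf4 (11.4 ± 3.55), and every neighbour in the order overlapped the next. The same 3 enzymes were again the lowest, now with Asns at 0.547 ± 0.374 CPM per kilobase above Psat1 and Phgdh.

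ATF4 binds DNA with C/EBP partners at elements whose core was searched here as TGATGNAA, on both strands, in windows of 250 bases before to 50 bases after each RefSeq start (GRCm38.p6). All 10 members had a window, and 4 held the core: Asns, Trib3, Chac1 and Fgf21. Over all 27025 genes with a window 4.51% held it. The form TGATGCAA, which is part of the same search, was found in Chac1 and Fgf21 and in 1.03% of all genes. The cyclic AMP element TGACGTCA and the ER stress element were found in 0 members, and in 2.03% and 0.137% of all genes. The 4 windows are printed 5′ to 3′ on the strand of the gene because they show where the core lies in the called gene Asns and in the members that were not called, with the match in capitals. In Asns the match reads TGATGAAA on the gene's own strand and starts 23 bases before the RefSeq start (chr6:7693160-7693459, minus strand). In Fgf21 (chr7:45615441-45615740, minus strand) and Chac1 (chr2:119350992-119351291, plus strand) the opposite strand reads TGATGCAA, at 139 and 193 bases before the start. In Trib3 (chr2:152344011-152344310, minus strand) the opposite strand reads TGATGTAA, from base 15 of the transcript.
Asns: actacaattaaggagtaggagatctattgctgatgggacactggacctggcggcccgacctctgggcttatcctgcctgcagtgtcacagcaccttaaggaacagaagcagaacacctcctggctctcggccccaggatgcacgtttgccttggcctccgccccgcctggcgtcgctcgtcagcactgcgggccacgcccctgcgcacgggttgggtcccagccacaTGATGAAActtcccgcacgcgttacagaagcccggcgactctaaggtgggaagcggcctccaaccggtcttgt
Fgf21: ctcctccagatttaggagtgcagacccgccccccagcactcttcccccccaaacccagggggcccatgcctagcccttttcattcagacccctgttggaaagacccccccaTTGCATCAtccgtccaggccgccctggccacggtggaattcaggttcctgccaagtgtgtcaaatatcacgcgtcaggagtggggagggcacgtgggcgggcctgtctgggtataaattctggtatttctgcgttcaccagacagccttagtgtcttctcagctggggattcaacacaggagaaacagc
Chac1: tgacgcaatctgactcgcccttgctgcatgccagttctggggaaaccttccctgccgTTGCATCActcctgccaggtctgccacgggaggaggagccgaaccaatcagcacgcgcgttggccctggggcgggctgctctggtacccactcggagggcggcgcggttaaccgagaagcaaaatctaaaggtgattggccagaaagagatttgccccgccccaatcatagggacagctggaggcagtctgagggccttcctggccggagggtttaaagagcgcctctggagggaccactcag
Trib3: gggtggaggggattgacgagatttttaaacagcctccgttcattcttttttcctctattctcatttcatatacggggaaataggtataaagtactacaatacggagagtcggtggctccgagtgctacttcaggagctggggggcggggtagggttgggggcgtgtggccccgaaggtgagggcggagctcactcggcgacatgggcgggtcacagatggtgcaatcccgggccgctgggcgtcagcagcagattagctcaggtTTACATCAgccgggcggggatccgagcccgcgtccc
These letters are a description of the windows and not evidence of binding. Of the 4 genes, Asns was called and the others had log2 fold changes of 0.88 (Fgf21), 0.61 (Trib3) and 0.17 (Chac1). Of 47 further pathway genes with a window 13 held the core, among them Atf3, Nupr1, Vldlr and Slc7a11.

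The rest of the pathway was described by 63 genes in 6 lists, of which 55 were tested. Of these 1 rose (Cars1), 1 fell (Ppp1r15b) and 53 did not pass, with a median log2 fold change of 0.13. Both calls were lost in each of the 6 fits that left out 1 library. At an unadjusted p under 0.05 there were 10 higher and 5 lower of the 55, beside the 10.2% and 12.9% of all tested genes. Groups did not overlap for 10 genes higher in NASH and 4 lower, beside the background given above.

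Among 15 genes of the steps before ATF4 (the eIF2alpha kinases, Gcn1, eIF2alpha itself, the exchange factor eIF2B, the phosphatase subunits, and Dele1 and Oma1 of the mitochondrial relay), Ppp1r15b was called lower and 0 were called higher (4 at an unadjusted p under 0.05). Ppp1r15b is the constitutive subunit that directs a phosphatase to eIF2alpha. It stood at 23.5, 23.8 and 22.2 CPM in steatosis and 13.9, 14.5 and 14.4 CPM in NASH, without overlap (log2 fold change -0.70 with SE 0.17, adjusted p = 0.0448 in edgeR). It shares 640 exon bases with Gm26616 on the opposite strand. In the fits without 1 library its adjusted p was 0.0692 to 0.148 by edgeR. The stress-induced subunit Ppp1r15a, chosen after its values were seen, had a log2 fold change of 0.40 (adjusted p = 0.404 in edgeR). The kinases Eif2ak4 (GCN2, for amino acid shortage) and Eif2ak3 (PERK, for ER stress), chosen after their values were seen, had 0.91 and 0.73 (adjusted p = 0.0909 and 0.175 in edgeR).

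The 5 partner transcription factors had 0 calls by edgeR and DESeq2, and 2 had an unadjusted p under 0.05. Nupr1, a stress-induced chromatin protein, stood at 1.23, 2.28 and 2.15 CPM in steatosis and 4.72, 3.48 and 3.18 CPM in NASH, without overlap (log2 fold change 1.0 with SE 0.29, adjusted p = 0.0782 in edgeR). Atf3, an ATF4 target and partner, stood at 11.5, 2.94 and 1.89 CPM in steatosis and 2.08, 1.94 and 2.27 CPM in NASH. Its log2 fold change of -1.35 (SE 0.59, adjusted p = 0.199 in edgeR) rested on steatosis 1, the liver in which Sesn2 was highest too; without it the value was -0.17 (adjusted p = 0.827 in edgeR). Of 10 other stress targets 8 were tested and 0 called by either tool, with 1 at an unadjusted p under 0.05. That gene was Vldlr, a lipoprotein receptor, at -1.17 (SE 0.41, adjusted p = 0.125 in edgeR), and the autophagy gene Map1lc3b followed at -0.50 (SE 0.24, adjusted p = 0.235 in edgeR).

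Of 9 further amino acid enzymes 6 were tested and 0 called by edgeR or DESeq2, with 2 at an unadjusted p under 0.05. Psph, the last enzyme of serine synthesis, stood at 0.678, 1.56 and 1.37 CPM in steatosis and 2.5, 2.08 and 2.72 CPM in NASH, without overlap (log2 fold change 0.99 with SE 0.34, adjusted p = 0.111 in edgeR), and shares 452 exon bases with Cct6a on the opposite strand. Cth, which makes cysteine from cystathionine, had a log2 fold change of -0.68 (SE 0.22, adjusted p = 0.101 in edgeR).

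Of 10 amino acid transporters 7 were tested and 0 called by edgeR, with 3 at an unadjusted p under 0.05. DESeq2 called 2 of them, Slc43a1 higher and Slc6a9 lower. Of the 10192 genes to which it gave an adjusted p, DESeq2 called 300 higher and 558 lower. Slc43a1, a carrier of large neutral amino acids, stood at 1.85, 3.72 and 5.90 CPM in steatosis and 8.06, 6.36 and 20.2 CPM in NASH (log2 fold change 1.55 with SE 0.47, adjusted p = 0.0862 in edgeR). Slc6a9, a glycine transporter, had a log2 fold change of -1.35 (SE 0.39, adjusted p = 0.0772 in edgeR) and overlaps Ccdc24 over 1429 exon bases on the opposite strand.

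The 14 cytosolic aminoacyl-tRNA synthetases, many of which ATF4 is known to induce, were all tested, and 1 rose. This was Cars1, the cysteinyl-tRNA synthetase, at 13.4, 14.7 and 10.4 CPM in steatosis and 34.6, 20.7 and 21.1 CPM in NASH (log2 fold change 0.99 with SE 0.25, adjusted p = 0.0482 in edgeR). Cars1 shares 211 exon bases with Gm15580 on the opposite strand. The log2 fold change was above 0 for 12 of the 14, with a median of 0.27, beside 5754 of all 11375 tested genes. It was above 0 for all 14 (median 0.39) with library sizes from the remaining genes without TMM. That scaling also moved the median of all genes, from 0.01 to 0.12.

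**Figure D3:**
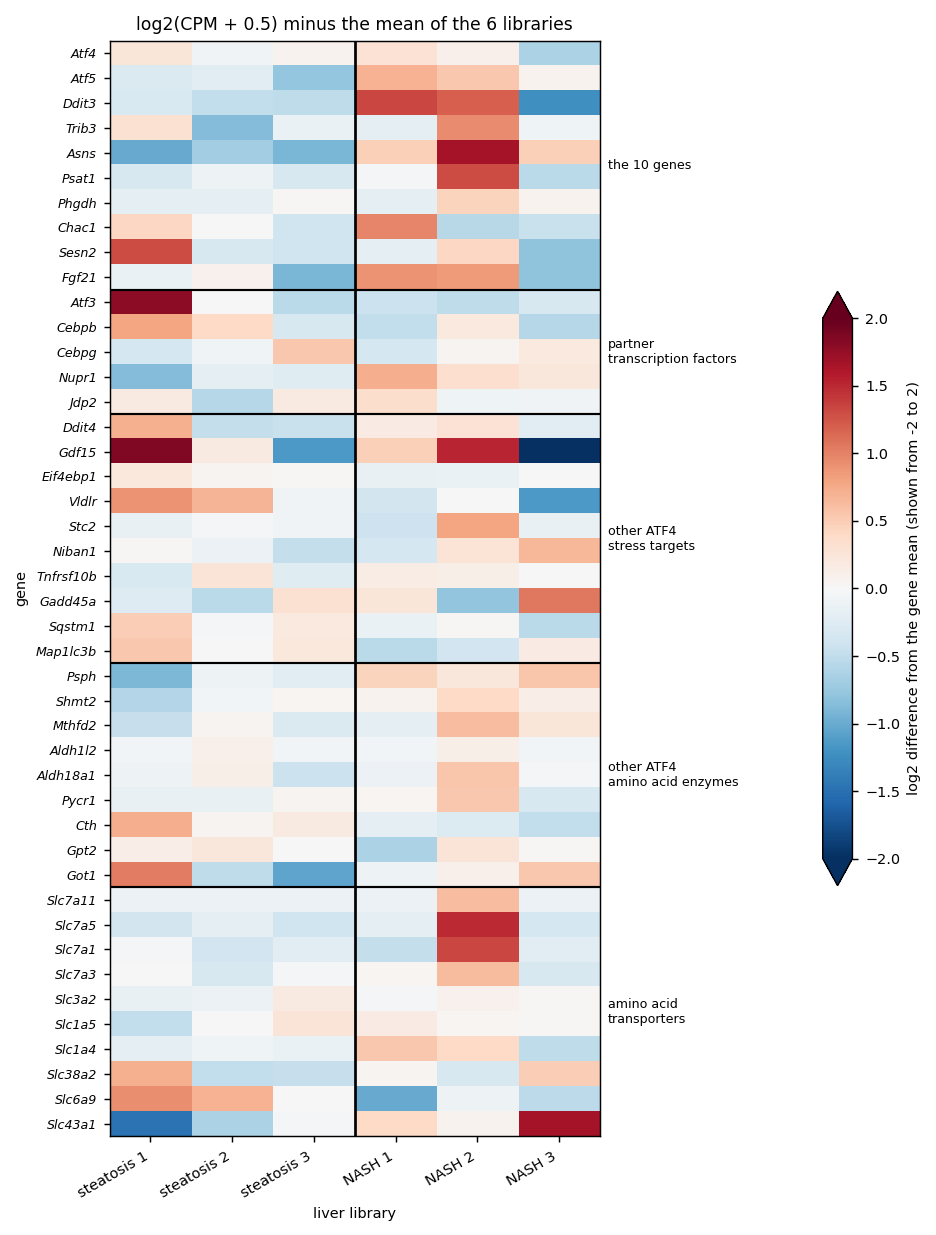
Difference of log2(CPM + 0.5) from the mean of the 6 libraries for the 10 genes and 34 further pathway genes, with livers in columns and colour running from -2 to 2; values beyond are drawn at the limit, and the added 0.5 CPM shrinks genes with few counts. NASH 2 is the reddest column for Asns, Psat1, Slc7a5 and Slc7a1, NASH 1 and NASH 2 for Ddit3 and Fgf21, and steatosis 1 for Atf3 and Sesn2.

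The livers of the NASH group differed in which genes were high. NASH 1 held the highest level of 5 members (Atf4, Atf5, Ddit3, Chac1 and Fgf21), NASH 2 that of 4 (Trib3, Asns, Psat1 and Phgdh) and steatosis 1 that of Sesn2. NASH 3 was highest for 0 members, against 16.7% of all tested genes. Some of these first places lay within counting error of the next liver, as for Atf4 (33.6 CPM in NASH 1, 32.5 CPM in steatosis 1) and Phgdh (4 counts in NASH 2). NASH 1 was also highest for 17 of the 63 pathway genes (27.0%), beside 18.5% of all tested genes. NASH 2 was highest for 20 of the 63 (31.7%), beside 18.2% of all tested genes, and for 6 of the 9 further amino acid enzymes. Of these 63 and 9 genes 55 and 6 were tested, so the background is not fully alike. Steatosis 1 was highest for 14 of the 63 (22.2%), beside 21.9% of all tested genes, and for 6 of the 10 other stress targets. Of the 14 synthetases 8 were highest in NASH 1 and 6 in NASH 2. Among amino acid transporters, chosen after their values were seen, Slc7a5 had 53 counts in NASH 2 and 7 to 16 in each other liver. Slc7a1 had 26 counts in NASH 2 and 2 to 7 elsewhere, and Slc7a11 had 5 in NASH 2 and 0 elsewhere. These are values of 1 liver, so they say nothing of NASH as a class.

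Other lists were set beside the members. Of 8 enzymes that break down serine, glycine and asparagine 1 rose: Sds, serine dehydratase, at 8.81, 12.6 and 4.82 CPM in steatosis and 14.2, 37.2 and 28.7 CPM in NASH (log2 fold change 1.62 with SE 0.39, adjusted p = 0.0457 in edgeR). This call held without NASH 1 and was lost in each of the 5 fits that left out another library, and Sds shares 360 exon bases with Plbd2 on the opposite strand. Aspg, an asparaginase chosen after its values were seen, stood at 222 to 237 CPM in steatosis and 301 to 464 CPM in NASH (log2 fold change 0.82 with SE 0.25, adjusted p = 0.0844 in edgeR), and DESeq2 called it higher.

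Of 18 genes of ER chaperones and the other branches of the unfolded protein response 2 rose and 0 fell (11 at an unadjusted p under 0.05), with a median log2 fold change of 0.77. DESeq2 called 8 higher and 0 lower. Sdf2l1, a component of an ER chaperone complex, went from 2.44 ± 1.72 CPM in steatosis to 9.39 ± 2.70 CPM in NASH (means ± SD of 3 livers; log2 fold change 1.89, adjusted p = 0.0362 in edgeR). Dnajb11, an ER co-chaperone, went from 17.5 ± 2.85 CPM in steatosis to 43.1 ± 20.8 CPM in NASH (means ± SD of 3 livers; log2 fold change 1.30, adjusted p = 0.0465 in edgeR). The Sdf2l1 call held only without steatosis 3 and the Dnajb11 call only without NASH 3 among the 6 fits with 1 library left out. The 10 mitochondrial chaperones and proteases, which mark the mitochondrial branch of protein stress, had 0 calls by edgeR and DESeq2 (2 at an unadjusted p under 0.05) and log2 fold changes that were all below 0 (median -0.44), Clpp standing at -0.54 and Hspd1 at -0.56 (adjusted p = 0.129 and 0.138 in edgeR). With library sizes from the remaining genes without TMM the median of all genes shifted from 0.01 to 0.12 and that of these 10 genes from -0.44 to -0.34, with all 10 still below 0.

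The oxidative stress factor NRF2 also drives glutathione genes and Sesn2. Of its 6 listed targets 0 rose and 1 fell (3 at an unadjusted p under 0.05): Gclm, a subunit of the enzyme that starts glutathione synthesis, went from 33.5 ± 3.13 CPM in steatosis to 15.4 ± 4.41 CPM in NASH (means ± SD of 3 livers; log2 fold change -1.12, adjusted p = 0.0266 in edgeR). Gclm shares 244 exon bases with Gm6061 on the same strand and 296 with Gm17494 on the opposite one. The call was lost without steatosis 1, steatosis 2, NASH 2 or NASH 3 (adjusted p = 0.0719 to 0.10 in edgeR). Of the paralogs Trib1, Trib2, Chac2, Sesn1 and Sesn3, 4 were tested and 0 called by edgeR or DESeq2 (1 at an unadjusted p under 0.05). Chac2 had a log2 fold change of -0.99 (SE 0.44, adjusted p = 0.212 in edgeR), and Sesn1 one of 0.32 (SE 0.24, adjusted p = 0.479 in edgeR).

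Fgf21 was set beside PPARalpha targets, since PPARalpha also drives it. Of 11 genes, Ppara included, 6 fell and 0 rose, with a median log2 fold change of -1.38. An unadjusted p under 0.05 was found for 10, and DESeq2 called 9 lower, beside 558 of the 10192 genes to which it gave an adjusted p. Vnn1 went from 52.1 ± 11.3 CPM in steatosis to 20.04 ± 1.10 CPM in NASH (means ± SD of 3 livers; log2 fold change -1.38, adjusted p = 0.0109 in edgeR). Cyp4a10, Acot1 and Cyp4a14, enzymes of fatty acid handling, had log2 fold changes of -3.48, -3.43 and -4.27 (adjusted p = 0.00374, 0.00642 and 0.015 in edgeR), beside 0.88 for Fgf21. All 11 were highest in steatosis 1, the highest library for 21.9% of all tested genes. Fgf21 was highest in NASH 1, at 7.92 CPM beside 7.63 CPM in NASH 2, with 114 counts in each. The part of PPARalpha in the Fgf21 values was not tested. The call of Cyp4a14 was lost without NASH 1 or NASH 3 (adjusted p = 0.0584 and 0.0523 in edgeR). The receptors through which FGF proteins act had 0 calls among 3 tested by edgeR (2 at an unadjusted p under 0.05) and 2 calls by DESeq2, Fgfr1 and Fgfr4. Fgfr4, the main FGF receptor of hepatocytes, stood at 10.3, 14.7 and 14.5 CPM in steatosis and 34.0, 27.3 and 17.7 CPM in NASH (log2 fold change 1.0 with SE 0.26, adjusted p = 0.0543 in edgeR), and passed without NASH 3. Fgfr1 had 1.02 (SE 0.28, adjusted p = 0.0677 in edgeR).

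**Figure D4:**
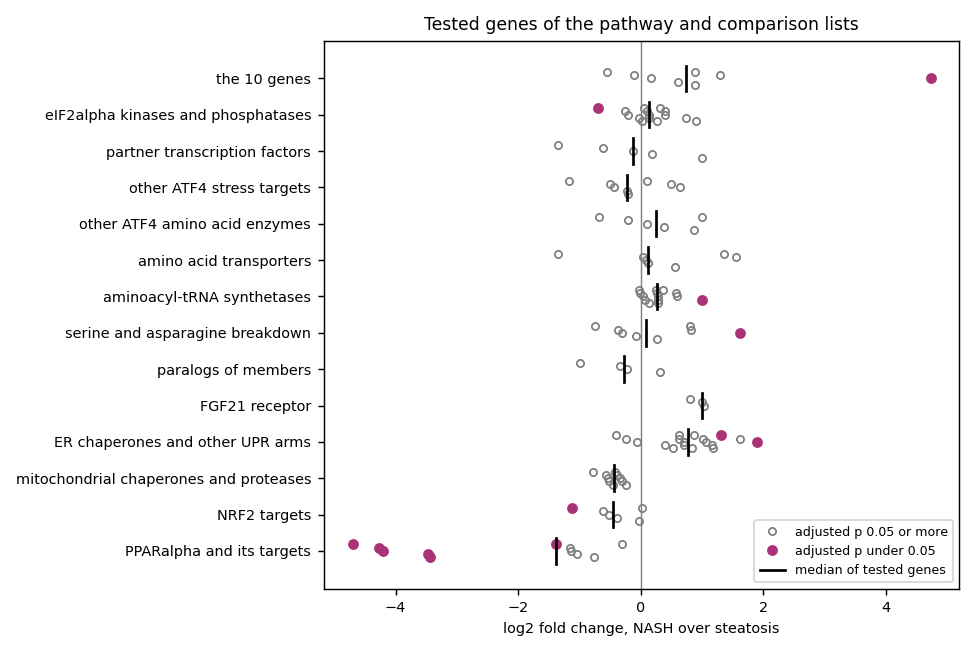
Log2 fold change of NASH over steatosis for each tested gene of the pathway and comparison lists (open, adjusted p of 0.05 or more by edgeR; filled, under 0.05), with a bar at each list's median. The 10 genes have 1 filled point, Asns at 4.73, and a median of 0.75; the PPARalpha list has 6 filled points below 0.

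In whole liver, fewer cells of a type and less RNA per cell cannot be told apart. Summed levels of 5 stellate cell markers were 40.2 to 41.1 CPM in steatosis and 24.2 to 27.8 CPM in NASH, with Dcn called lower (log2 fold change -1.03, adjusted p = 0.0348 in edgeR, a call lost in each fit that left out 1 library). Dcn was the largest part of that sum in every library; Lrat and Des had log2 fold changes of 0.16 and 0.39, and Col1a1 and Reln of -0.50 and -0.30, none of them called. Those of 5 cholangiocyte markers were 23.9 to 42.0 and 12.4 to 23.3 CPM. Most of this was Spp1 (log2 fold change -0.83, not called), and Sox9 lay higher in all 3 NASH livers than in any with steatosis (0.79, not called). Epcam, with too few counts to be tested, lay lower in all 3 (0.268 to 0.417 CPM against 0.431 to 0.659 CPM in steatosis). Summed levels of 6 macrophage markers were 26.7 to 32.0 and 22.8 to 50.03 CPM, and those of 5 endothelial markers 26.7 to 37.0 and 31.5 to 50.9 CPM. Of the endothelial markers Pecam1 and Clec4g lay higher in all 3 NASH livers than in any with steatosis (log2 fold changes 0.60 and 0.81, not called). The groups overlapped for Stab2, Lyve1 and Kdr. Lymphocyte and neutrophil markers stayed at or below 1.44 CPM in sum, and of 3 adipocyte markers Adipoq and Plin1 were at 0 in every library. In NASH 2, the liver with the most Asns, the macrophage sum was the lowest of the 6. Clec4f, the largest part of that sum, was lowest in NASH 2, as were Cd68 and Csf1r. Vsig4 stood at 2.34 CPM in NASH 2, above every steatosis liver (at most 1.82 CPM), and Adgre1 and Marco were not lowest in NASH 2. None of these markers was called. The part of other cell types in the members' values was not tested.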

How the data were processed

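Poly(A)-selected RNA of 6 whole livers was sequenced in pairs of 150 bp reads. The deposited values are raw counts per Ensembl gene; per the submitters' processing notes TopHat2 and HTSeq were used with mm10 (GRCm38), while tool versions, annotation release and strand setting were not stated there. Symbols, positions and exon overlaps were taken from GENCODE M21, which named 37607 of 39179 identifiers.

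Counts were fitted across all genes with edgeR 4.0.16 in R 4.3.3 (TMM, filterByExpr with a minimum count of 10, quasi-likelihood test, 3 livers per class, no covariate), with Benjamini-Hochberg adjustment over 11375 genes; the pipeline was tested on simulated data. DESeq2 1.42.0, limma-voom (limma 3.58.1), other scalings, filters, a replicate block and left-out libraries were alternatives. A gene is called at an adjusted p under 0.05. Intervals are exact (Poisson, or binomial for ratios) at 95% and cover counting error only; reads without molecular identifiers are not independent molecules. A share of 1 gene's reads can also fall to an overlapping gene where strand was not used in counting.

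The members and lists were chosen with earlier results of these data known. All 10 members are described. From each pathway or comparison list the called genes were named, up to the 4 with the smallest p, or else the 2 with the smallest p; genes outside this rule are said to have been chosen after their values were seen. No 2 libraries of the same group agreed within sampling noise (chi-square per degree of freedom at least 38.3). Libraries of different groups were not compared in this way. Promoter windows are RefSeq's.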

Additional observations from a re-analysis of the deposited data

How the results depend on the processing

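The median log2 fold change of the tested members, 0.75, lay between 0.58 and 0.97 under every alternative run, and no member was called lower under any. Single members kept direction and side of the threshold in 110 cases, passed it newly in 8, lost it in 2 and reversed in 6. Cases without an adjusted p are not in this tally. Asns was such a case with DESeq2, which gave it none, and with a minimum of 1 CPM in 3 libraries, which removed it. Atf4 reversed to 0.0069 with library sizes of the remaining genes without TMM and to 0.0408 without steatosis 2 and NASH 3. Leaving out 1 library gave -0.31 to 0.12 for Atf4 (above 0 without NASH 3), -0.94 to 0.31 for Sesn2 (above 0 without steatosis 1) and -0.63 to 0.49 for Chac1 (below 0 without NASH 1, and -0.03 without steatosis 3). The causes were not tested.

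Against 169 genes called higher and 379 lower, DESeq2 called 300 higher, no filter on low counts gave 535 and 912, an adjusted p under 0.10 gave 445 and 784, and leaving out steatosis 2 and NASH 3 gave 17 and 19, with 4 libraries left. Library sizes without TMM gave 222 lower and 178 higher. Leaving out 1 library gave 29 to 170 higher and 77 to 298 lower. Members called higher, 1 in the report, were 2 (Asns and Atf5) with library sizes without TMM, under the replicate block and at 0.10, 4 with no filter (Asns, Atf5, Ddit3 and Fgf21), 0 with a minimum of 1 CPM in 3 libraries, which removed Asns, and 0 to 2 without 1 library. The count stayed at 1 with another gene in place of Asns by DESeq2 (Atf5) and without steatosis 2 and NASH 3. There the gene was Ddit3 (log2 fold change 1.73, adjusted p = 0.0431 in edgeR). Pathway genes called higher, 1 in the report, were 2 by DESeq2 and under the block, 0 by limma-voom and without both libraries, 5 with no filter, 4 at 0.10, and 0 in each fit without 1 library. Those called lower, also 1, were 2 by DESeq2 and at 0.10, 5 with no filter, 0 with upper-quartile factors, without TMM, under the block and without both libraries, and 0 to 1 without 1 library.

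Same-numbered libraries deviated from their group means with correlations of 0.03, -0.01 and 0.07, so the numbers were not taken as pairs; the replicate block called 153 genes higher and 313 lower, Asns at 4.64 and Atf5 at 0.88. Depth limits Asns, Psat1 and Phgdh, with at most 2, 5 and 2 counts in any steatosis library.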

Other observations

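Genes of the ER stress list that were chosen after their values were seen had a pattern like that of Ddit3 within the NASH group, and were picked for it. Hspa5, the main ER chaperone, stood at 120, 200 and 166 CPM in steatosis and at 548, 396 and 139 CPM in NASH 1, 2 and 3 (log2 fold change 1.15, adjusted p = 0.141 in edgeR). Creld2, a secreted ER stress protein, stood at 27.2, 40.6 and 29.6 CPM in steatosis and at 178, 92.3 and 28.4 CPM in NASH (log2 fold change 1.62, edgeR adjusted p = 0.0938). For both, as for Ddit3, NASH 1 and NASH 2 lay above every steatosis liver and NASH 3 did not. The list as a whole did not share this pattern: for 9 of its 18 genes all 3 NASH livers lay above every steatosis liver, as for Sdf2l1, at 6.63 CPM in NASH 3 against at most 4.30 CPM in steatosis. Over all tested genes 13.1% lay wholly higher in NASH.

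Gdf15, a stress hormone that is also an ATF4 and CHOP target and was chosen after its values were seen, spread widely within both groups. It stood at 97.0, 30.3 and 11.8 CPM in steatosis and at 37.2, 77.9 and 3.18 CPM in NASH (log2 fold change -0.23, SE 0.89, edgeR adjusted p = 0.912). Steatosis 1, its highest liver, was also the highest for Atf3, Sesn2 and all 11 genes of the PPARalpha list. It was the highest library for 21.9% of all tested genes, the largest share of the 6 libraries.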
